A study of Homo sapiens with 3 samples.

Results

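The genes of the phosphatidylinositol 3-kinase-related kinase (PIKK) family and of the TTT cochaperone complex were examined for occupancy by CHD8 and by TRRAP, which is itself a PIKK family member. The 8 genes were taken by family and complex membership out of 20033 protein-coding genes: the kinase genes ATM, ATR, PRKDC, MTOR and SMG1 and the cochaperone genes TELO2, TTI1 and TTI2. Chromatin came from wild-type human neural stem cells that had been differentiated from the embryonic stem cell line H9 and was crosslinked with 2 mM disuccinimidyl glutarate followed by 1% formaldehyde. The chromatin was immunoprecipitated with an antibody against CHD8 or against TRRAP, with 1 library each and no replicates, so no test between conditions was possible. An IgG library of the same cells was not analysed here. The CHD8 list held 23393 peaks and the TRRAP list 14735, and the read depth behind them is unknown. A gene without a listed peak is therefore reported as such and not as unbound. Peak lists do not measure expression, so the identity of the cells could not be checked on marker genes.

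The kinases of this family share a large C-terminal kinase domain and act at points where a cell decides whether to divide, repair or grow. ATM responds to DNA double-strand breaks, and ATR to exposed single-stranded DNA at stalled replication forks. The PRKDC product, DNA-PKcs, acts in the joining of broken ends. MTOR couples growth to nutrients, and SMG1 phosphorylates UPF1 in the decay of transcripts with premature stop codons. TRRAP retains the fold without kinase activity and serves as a scaffold in histone acetyltransferase complexes. The TELO2, TTI1 and TTI2 proteins form the TTT complex, which works with the R2TP complex and HSP90 to fold and assemble newly made PIKK proteins, TRRAP included.

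Part of the sequence under the promoter peaks is shown by the 150 bases that precede the outermost annotated start of 5 of the genes. The bases are from GRCh38, read from the reference in the direction of transcription. Some peak summits lay outside these stretches, among them the CHD8 summits of ATM, MTOR and TELO2 and the stronger TRRAP summit of TELO2. ATM is shown because it had the strongest TRRAP peak of the family, ATR because the summits of both proteins fell inside the stretch, MTOR and SMG1 because they had CHD8 without TRRAP, and TELO2 because an E-box lay beside a TRRAP summit. They lie at chr11:108222894-108223043 (ATM, plus strand), chr3:142578734-142578883 (ATR, minus strand), chr1:11262557-11262706 (MTOR, minus strand), chr16:18926409-18926558 (SMG1, minus strand) and chr16:1493194-1493343 (TELO2, plus strand). Capitals mark matches on either strand, without mismatch, to the words listed after the sequences.
ATM: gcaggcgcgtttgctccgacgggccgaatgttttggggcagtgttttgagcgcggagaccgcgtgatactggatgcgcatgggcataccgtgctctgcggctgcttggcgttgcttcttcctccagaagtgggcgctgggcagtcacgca
ATR: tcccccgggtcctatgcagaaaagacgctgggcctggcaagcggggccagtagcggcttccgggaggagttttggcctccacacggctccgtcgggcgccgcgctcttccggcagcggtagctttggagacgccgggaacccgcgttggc
MTOR: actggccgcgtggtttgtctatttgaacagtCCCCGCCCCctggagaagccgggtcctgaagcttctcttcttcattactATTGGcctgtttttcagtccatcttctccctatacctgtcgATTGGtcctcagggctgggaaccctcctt
SMG1: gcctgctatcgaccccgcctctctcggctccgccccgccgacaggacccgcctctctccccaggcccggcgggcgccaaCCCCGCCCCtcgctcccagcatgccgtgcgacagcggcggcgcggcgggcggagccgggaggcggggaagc
TELO2: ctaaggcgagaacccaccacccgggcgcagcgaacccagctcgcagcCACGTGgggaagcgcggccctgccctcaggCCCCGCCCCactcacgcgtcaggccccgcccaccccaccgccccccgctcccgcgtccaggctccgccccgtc

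The words were the E-box CACGTG, the ETS word CCGGAAGT, the YY1 word AAGATGGCG, the NRF1 word GCGCATGCG, the SP word GGGGCGGGG, the CCAAT box, the cyclic AMP response element TGACGTCA, and TTTGGCGC and TTTCCCGC for E2F. None of these words overlapped another in the stretches shown. The ATM and ATR stretches held 0 matches. The MTOR stretch held 1 SP word and 2 CCAAT boxes, both inverted, and the SMG1 stretch held 1 SP word. The TELO2 stretch held 1 SP word and 1 E-box, the word bound by MYC and MAX. Of the 150 bp upstream of all 20033 coding genes, 16.2% held the SP word, 25.3% the CCAAT box and 5.22% the E-box. In the stretch of TTI1 that is not shown, the only match was 1 TTTCCCGC, and 1.48% of all coding genes held an E2F word there. A match describes the letters in these windows and does not show a bound factor.

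CHD8 lay at the promoter of all 8 genes and TRRAP at 6 of them. Here a peak counts as a promoter peak when any base of it falls within 1 kb of the canonical start site. Among all coding genes, 55.9% had a CHD8 promoter peak, 34.9% a TRRAP promoter peak and 34.0% both. Of the kinase genes, 5 of 5 carried CHD8 and 3 carried TRRAP (ATM, ATR and PRKDC). The cochaperone genes carried both proteins in 3 of 3 cases. At TTI2, however, the TRRAP summit lay nearer the start of the neighbouring gene SNORD13 than that of TTI2. When only peaks above the median rank of their own list were kept, 8 genes still had CHD8 but 3 had TRRAP (ATM, ATR and PRKDC). TELO2, TTI1 and TTI2 lost TRRAP. The share of all coding genes that keep a promoter peak at this cut was not computed. The fall from 6 to 3 is therefore not shown to be particular to these genes. All 6 genes with TRRAP were genes with CHD8, and 60.7% of all coding genes with CHD8 had TRRAP as well, so the count of 6 of 8 differs from that background by about 1 gene. The ratio of observed to expected CpG around the 8 start sites ran from 0.71 (MTOR) to 0.92 (ATM and TELO2). Within that range of CpG ratio, 79.1% of coding genes had a CHD8 promoter peak and 51.4% a TRRAP promoter peak. The median CpG ratio was 0.855 for the 8 genes and 0.725 for all coding genes.

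**Figure D1:**
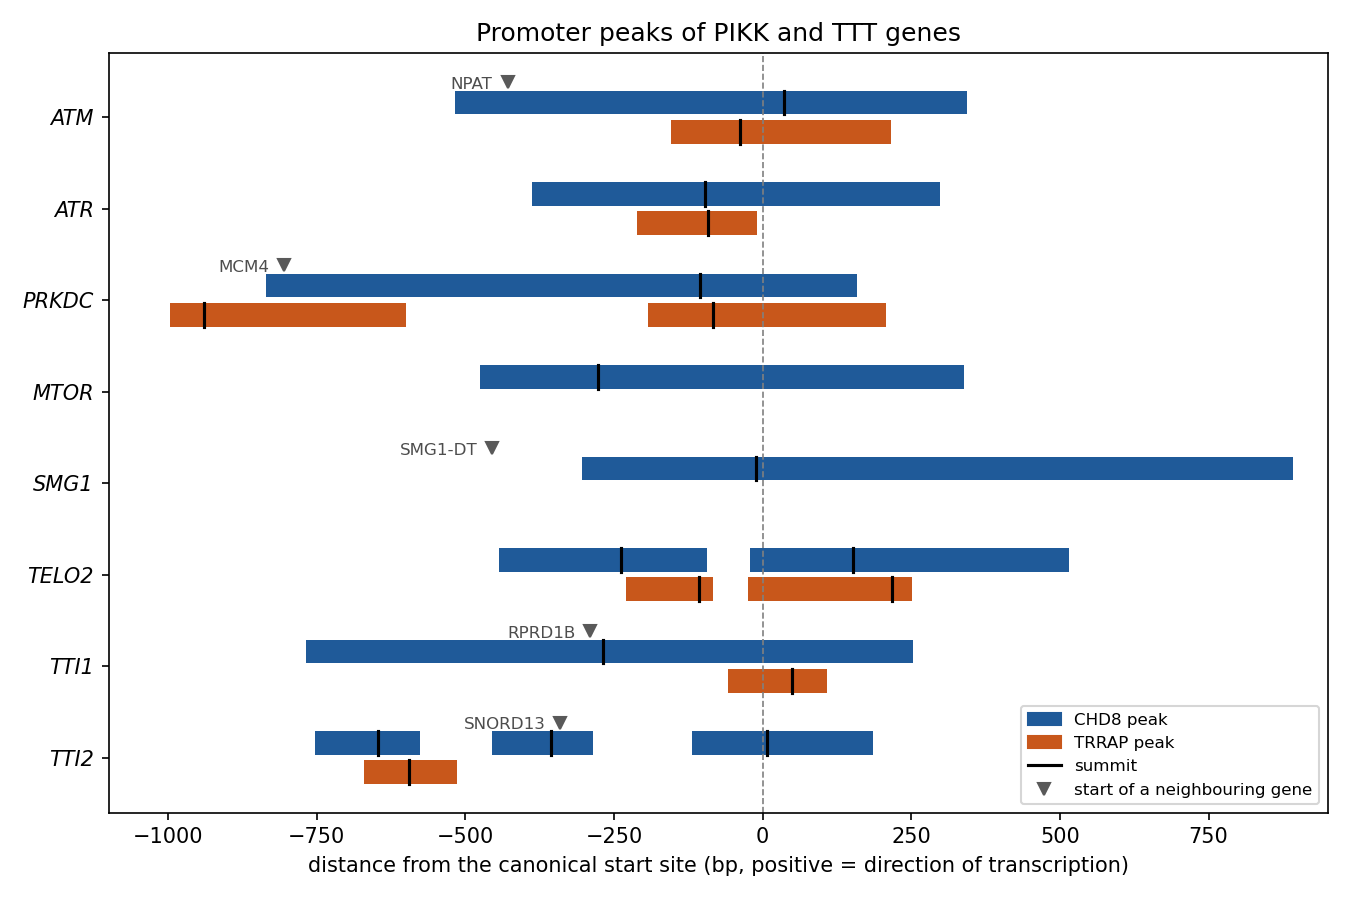
Promoter peaks of the 8 genes by distance from the canonical start site (bp), with CHD8 peaks in blue, TRRAP peaks in orange, a black line at each summit and a triangle at the start of a neighbouring gene. Each gene has at least 1 CHD8 peak that touches the promoter window, and MTOR and SMG1 have no TRRAP peak.

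ATM (chromosome 11, 108223044 to 108369102) combined the lowest CHD8 fold of the 8 genes with the highest TRRAP fold. The fold is the authors' linear ratio of signal over background at the peak, and it is used here only to rank peaks within a list. The CHD8 peak at 108222549 to 108223411, 863 bp wide, reached a fold of 11.1, with the summit 36 bp inside the 5' UTR in exon 1. The TRRAP peak at 108222913 to 108223283 lay wholly inside it, with a fold of 15.8 and a summit 38 bp upstream of ATM. The CHD8 peak ranked above 42.5% of the coding genes with CHD8, whereas the TRRAP peak ranked above 89.4% of the coding genes with TRRAP. Of 2236 coding genes that had both peaks and ranked no higher than ATM in CHD8, 179 (8.01%) ranked at least as high as ATM in TRRAP, a count made after the ATM values were seen. NPAT, a regulator of histone gene transcription, starts 429 bp upstream of ATM on the other strand, and the CHD8 peak covered both start sites. The TRRAP peak did not reach the NPAT start, and its summit was 391 bp from it.

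At ATR (chromosome 3, 142449007 to 142578733) the summits of both proteins lay 5 bp apart. For CHD8, the peak spanned 142578435 to 142579120 with a fold of 18.1, and its summit was 97 bp upstream. The TRRAP peak at 142578742 to 142578945, 204 bp wide and inside the CHD8 peak, had a fold of 9.6 and its summit 92 bp upstream. Both summits lay within the ATR stretch and within 100 bp of an SP word, which 17% of all 12578 CHD8 and 21.1% of all 7877 TRRAP promoter peaks also had. The ATR stretch held 0 matches, so that SP word does not lie wholly within the letters shown. ATR and MTOR were the kinase genes without another annotated gene start within 1 kb.

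PRKDC (chromosome 8, 47773111 to 47960178) shares its promoter region with MCM4, which encodes a subunit of the replicative helicase and is transcribed from the other strand. The CHD8 peak at 47959977 to 47960971 was 995 bp wide with a fold of 18.6, and its summit lay 106 bp upstream of the PRKDC start site. TRRAP formed 2 peaks there. The stronger, at 47959929 to 47960329 (fold 10.1), had its summit 84 bp upstream of PRKDC and 22 bp from the CHD8 summit. The weaker, at 47960735 to 47961133 (fold 6.73), had its summit 940 bp upstream of PRKDC and 135 bp from the canonical MCM4 start. The CHD8 peak overlapped both TRRAP peaks and reached the MCM4 start, so the signal at this pair cannot be given to 1 of the genes.

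MTOR (chromosome 1, 11106535 to 11262556) had the second-highest CHD8 fold of the family and no TRRAP peak. Its CHD8 peak at 11262212 to 11263027 was 816 bp wide, had a fold of 19.5 and ranked above 83.4% of the coding genes with CHD8. The summit lay 277 bp upstream of the start site, the farthest of the 8 strongest CHD8 promoter peaks, and a CCAAT box lay within 100 bp of it. This summit and that CCAAT box were upstream of the MTOR stretch shown, so the box is not one of those marked there. CCAAT occurred near 17.9% of all CHD8 promoter summits. Of all coding genes in the top 25% by CHD8 promoter rank, 75.3% had a TRRAP promoter peak, and 3 of the 4 PIKK and TTT genes in that class did (ATR, PRKDC and TTI1, with MTOR as the exception). In the rest of the genes with CHD8 the share was 55.8%, and again 3 of 4 members had TRRAP (ATM, TELO2 and TTI2, with SMG1 as the exception).

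**Figure D2:**
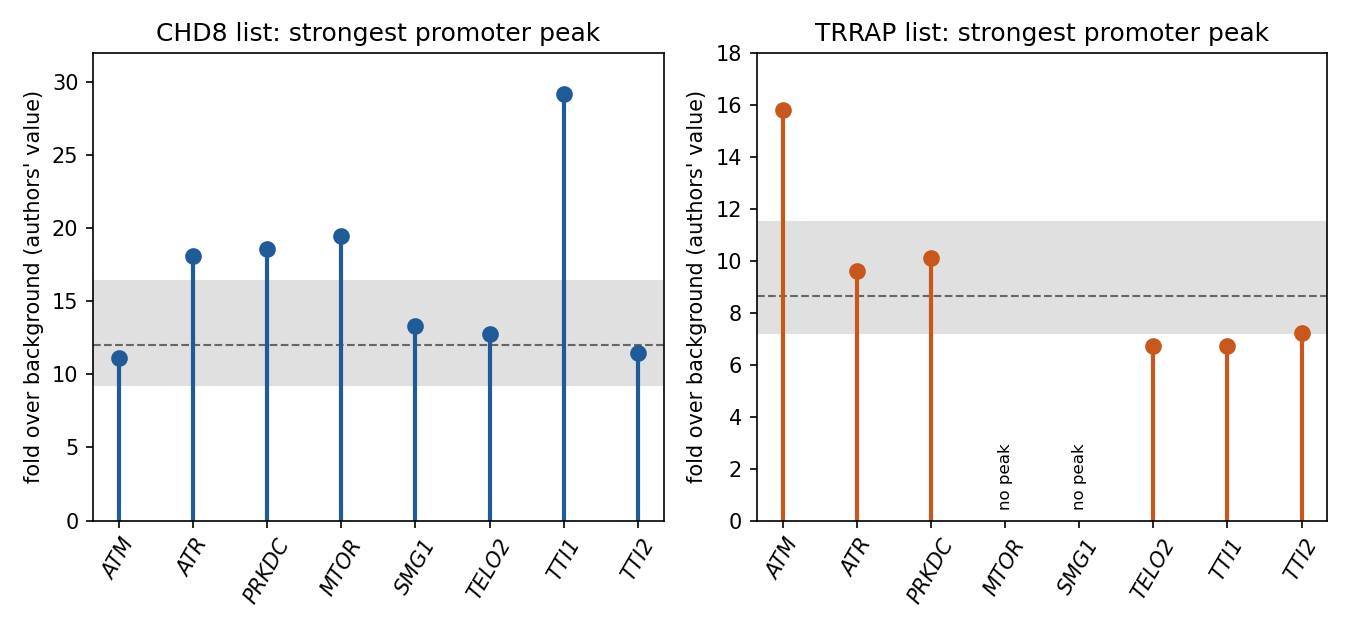
Fold of the strongest promoter peak of each gene as given by the authors, for the CHD8 list (left) and the TRRAP list (right). The dashed line is the median and the grey band the 25th to 75th percentile over all coding genes with a promoter peak in that list. ATM is lowest of the 8 in CHD8 (11.1) and highest in TRRAP (15.8), and the y axes of the panels are not comparable.

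At SMG1 (chromosome 16, 18804860 to 18926408) the CHD8 peak was the widest of the family and lay in repeated sequence. It spanned 18925516 to 18926712 (1197 bp), had a fold of 13.3, and its summit was 11 bp upstream of the start site. The 32-base words around this summit occurred a median of 3 times in the reference genome, while the other 21 of the 22 peak summits in the 8 gene spans were single-copy. No TRRAP peak was listed within the SMG1 span, and the nearest lay 57.5 kb upstream at the promoter of TMC7 (18983870 to 18984014, fold 7.69). The divergent long noncoding RNA SMG1-DT starts 455 bp upstream, outside the CHD8 peak.

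Because the SMG1 promoter is repeated, its copies were located in the genome after this value was seen. Copies that kept at least 5% of the 32-base words of the CHD8 peak were found at 4 other places, all on chromosome 16 and all at the start of an SMG1 pseudogene. Aligned to the 1197 bp of the SMG1 peak, the sequence was 94.2% identical at SMG1P2, 92% at SMG1P3, 86.1% at SMG1P5 and 83.8% at SMG1P1. All 4 copies carried a CHD8 peak, and all 4 also carried a TRRAP peak, which SMG1 itself lacked. At SMG1P2 the TRRAP peak (29595191 to 29595410) had a fold of 13.4, with its summit 44 bp downstream of the base aligned to the SMG1 start site. That fold lies between those of ATM and PRKDC. At SMG1P3 the TRRAP peak (21502116 to 21502345) had a fold of 8.17, with its summit 7 bp downstream of the aligned start. The TRRAP peaks of SMG1P1 (22437101 to 22437225) and SMG1P5 (30335072 to 30335344) both had a fold of 5.3, close to the lowest fold of 4.82 in the list.

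The CHD8 folds of the copies were 17.3 at SMG1P3 (21501507 to 21502572), 12.8 at SMG1P1 (22436884 to 22437357), 10.6 at SMG1P5 (30334671 to 30335543) and 9.75 at SMG1P2 (29595154 to 29595537), beside 13.3 at SMG1. These 4 summits lay between 33 and 55 bp from the base aligned to the SMG1 start site, downstream of it at SMG1P2, SMG1P3 and SMG1P5 and upstream at SMG1P1. SMG1P1 and SMG1P2 each had a second, weaker CHD8 peak farther downstream (folds 7.98 and 7.54), whose summit words occurred a median of 3 times. The summits of the TRRAP peaks were single-copy at SMG1P1, SMG1P2 and SMG1P3 by that measure and had a median of 2 copies at SMG1P5. Of the 32-base words around these TRRAP summits, 32.9% (SMG1P2), 44.3% (SMG1P3), 67.1% (SMG1P5) and 15.7% (SMG1P1) also occurred within 2 kb of the SMG1 start site. Over the whole TRRAP peaks the shares were 24.3%, 19.6%, 29.8% and 11.7% in the same order. How reads that match several copies were placed is not given in the sources used here, and its part in the split of peaks between SMG1 and its copies was not tested.

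**Figure D3:**
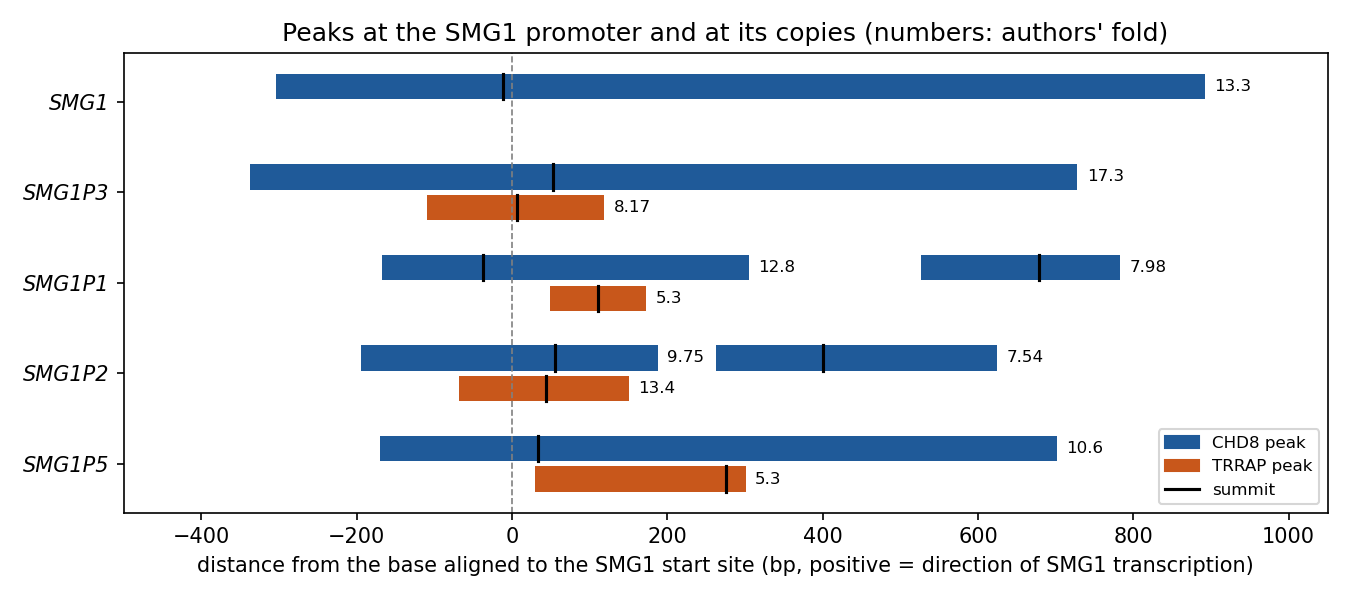
Peaks at SMG1 and at its 4 promoter copies on chromosome 16, by distance from the base aligned to the SMG1 start site (bp), with the authors' fold to the right of each peak. CHD8 peaks (blue) are present at all 5 places and TRRAP peaks (orange) at the 4 pseudogene copies only.

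TTI1 (chromosome 20, 37983007 to 38033461) had the strongest CHD8 peak of the 8 genes and 1 of the weakest TRRAP peaks. The CHD8 peak at 38033203 to 38034224 was 1022 bp wide with a fold of 29.2, above 94.4% of the coding genes with CHD8. Its summit lay 268 bp upstream of the TTI1 start site but only 22 bp from the canonical start of RPRD1B, a gene for an RNA polymerase II-binding protein that is transcribed from the other strand. The TRRAP peak at 38033347 to 38033514 was 168 bp wide with a fold of 6.73, above 15.6% of the coding genes with TRRAP. Its summit lay 318 bp from the CHD8 summit, on the TTI1 side, in the 5' UTR in exon 1 of TTI1 and 50 bp from the start site. An ETS word lay within 100 bp of that TRRAP summit, as at 3.83% of all TRRAP promoter summits.

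TELO2 (chromosome 16, 1493344 to 1510457) carried a pair of peaks in each list. The CHD8 peaks at 1492916 to 1493266 (fold 11.5) and 1493339 to 1493876 (fold 12.8) had summits 238 bp upstream and 152 bp downstream of the start site. The TRRAP peaks at 1493131 to 1493277 (fold 5.78) and 1493336 to 1493612 (fold 6.73) had summits 107 bp upstream and 217 bp downstream. Each TRRAP peak overlapped a different CHD8 peak, and the gap between the peaks of a list fell just upstream of the start site in both lists. The E-box of the TELO2 stretch lay within 100 bp of the upstream TRRAP summit. An SP word also lay within 100 bp of that summit, as at 21.1% of all TRRAP promoter summits. The peak was among the weakest of the TRRAP list and ranked above 4.04% of it. Of all TRRAP promoter summits, 8.61% had an E-box within 100 bp. The upstream TELO2 summit was the only 1 of the 9 TRRAP summits in the 8 spans that did. None of the 13 CHD8 summits in the spans had one, against 6.26% of all CHD8 promoter summits.

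TTI2 (chromosome 8, 33473386 to 33513185) showed the most divided pattern. A CHD8 peak at 33512950 to 33513253 (fold 11.5, summit 7 bp inside exon 1) sat on the start site and had no overlapping TRRAP peak. A second, at 33513420 to 33513590 (fold 6.66), had its summit 16 bp from the start of SNORD13, a small nucleolar RNA gene on the other strand. Another, at 33513711 to 33513888 (fold 8.43), had its summit 647 bp upstream of TTI2, and this was the CHD8 peak that overlapped the only TRRAP promoter peak (33513649 to 33513806, fold 7.21, summit 594 bp upstream). With a promoter window of 500 bp TTI2 therefore had no TRRAP promoter peak, and the family count fell from 6 to 5. The TRRAP summit was 254 bp from the SNORD13 start, nearer than to the TTI2 start. This peak therefore cannot be given to 1 of the genes.

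The order of the genes, then, differed between the lists, and only 6 of the 8 could be ordered by TRRAP. By CHD8 fold TTI1 (29.2) was followed by MTOR (19.5), PRKDC (18.6), ATR (18.1), SMG1 (13.3), TELO2 (12.8), TTI2 (11.5) and ATM (11.1). By TRRAP fold ATM (15.8) was followed by PRKDC (10.1), ATR (9.6), TTI2 (7.21), and TELO2 and TTI1 (6.73 each). The cochaperone genes ranked above 19.0% (TELO2), 15.6% (TTI1) and 23.2% (TTI2) of the coding genes with TRRAP, whereas the 3 kinase genes with TRRAP ranked above 58.0% to 89.4%. Without replicates, neighbours in these orders cannot be separated. The folds move in steps, and 1418 TRRAP peaks (9.62% of the list) shared the fold and significance of the TELO2 and TTI1 peaks and 1474 (10.0%) those of the TTI2 promoter peak. Ranks among such peaks rest on width and position alone. The strongest CHD8 promoter peaks of the 8 genes had a median fold of 15.7, against 12 over all 11208 coding genes with CHD8. The strongest TRRAP promoter peaks of the 6 genes had a median fold of 8.41, against 8.65 over the 7000 coding genes with TRRAP. The median widths were 840 bp against 638 bp for CHD8 and 240 bp against 269 bp for TRRAP.

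Outside the promoters, the spans from 5 kb upstream to the end of the gene were nearly free of peaks. The 8 spans held 13 CHD8 peaks, of which 11 were at the promoter, and 9 TRRAP peaks, of which 8 were. All 9 TRRAP peaks overlapped a CHD8 peak, 4 of them lying wholly inside it, and 8 of the 13 CHD8 peaks overlapped a TRRAP peak. The share of overlapping peaks over the whole lists was not computed. Among all coding genes, 6802 of the 7000 with a TRRAP promoter peak also had a CHD8 promoter peak, so such overlap is not particular to these genes. The 5 kinase genes, with a summed length of 740 kb, had 0 body peaks in either list. Of 1424 coding genes of 100 to 200 kb with a CHD8 promoter peak, 32.7% had a CHD8 body peak and 22.1% a TRRAP body peak, so a long gene without one was the common case. Both CHD8 body peaks and the single TRRAP body peak were counted in the span of TTI2, whose annotated gene runs past its canonical transcript. The CHD8 peak at 33484597 to 33485279 (fold 13.7) and the TRRAP peak at 33484669 to 33485260 (fold 9.12) were at the start of MAK16, which encodes a ribosome assembly factor. Their summits lay 293 and 115 bp from its canonical start. The CHD8 peak at 33472801 to 33473418 (fold 10.6) touched the end of the annotated TTI2 gene, but its summit lay past that end, 75 bp from the start of FUT10. These body peaks were therefore at the promoters of other genes.

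**Figure D4:**
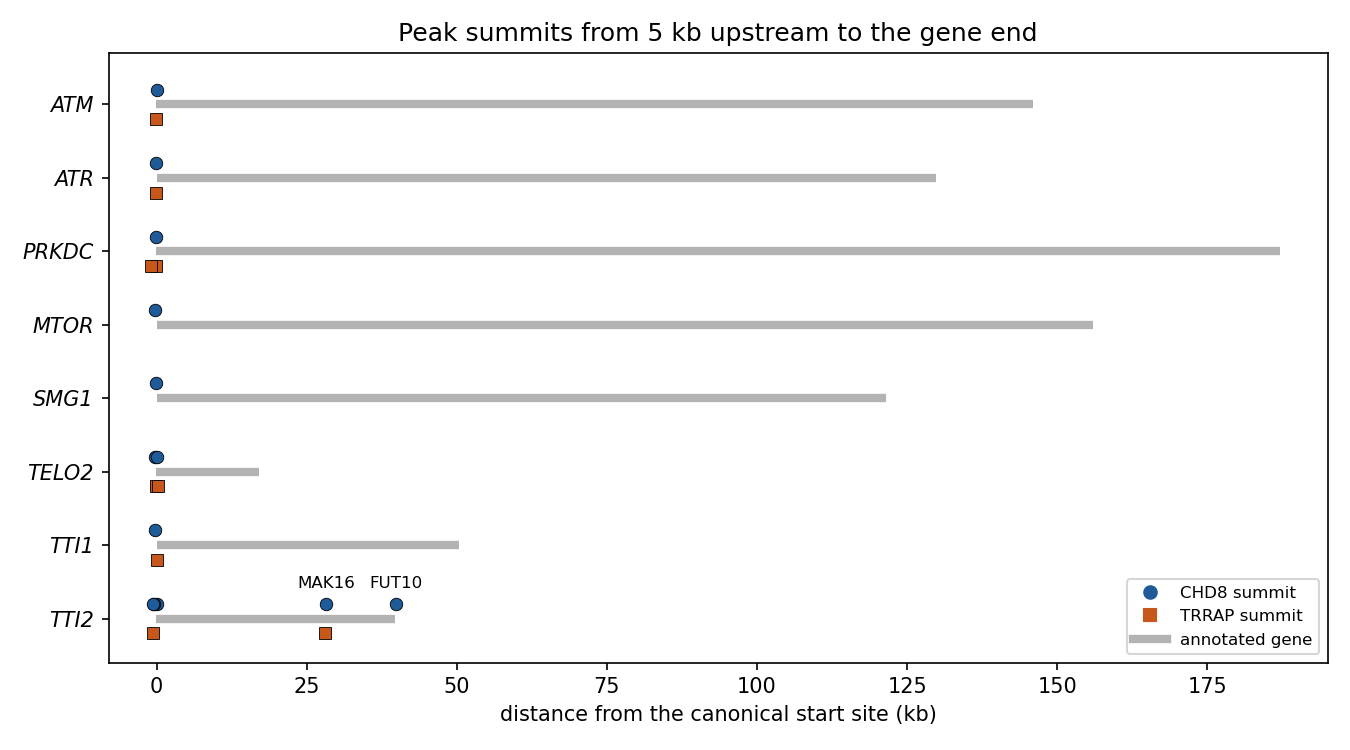
Summits of all peaks from 5 kb upstream to the gene end, by distance from the canonical start site (kb), with CHD8 as circles above and TRRAP as squares below each grey gene. Apart from the peaks at MAK16, within the annotated TTI2 gene, and at FUT10, just past its end, all summits lie beside the start site.

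A start of a coding gene on the opposite strand within 1 kb upstream was found at 3 of the 8 genes (ATM, PRKDC and TTI1), against 9.46% of all coding genes. All 3 such promoters carried both proteins. Of the other 5 genes, 3 carried both. The share with both proteins was not computed over all coding genes with or without such a neighbouring start. Whether such a start goes with the presence of both proteins was therefore not tested, and the counts are too small to show it.

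TRRAP, the remaining family member, carried both proteins at its own gene (chromosome 7, 98877933 to 99050831). Its CHD8 peak had a fold of 15.5 with the summit 505 bp downstream of the canonical start site, in intron 1. The TRRAP peaks at 98878447 to 98878787 and 98878918 to 98879075 had folds of 7.21 and 8.17. Like the 5 kinase genes, it had 0 body peaks in either list.

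The partners of these proteins were taken from a list of 26 genes that includes TRRAP: assembly factors, subunits that bind each kinase and checkpoint effectors. The list was written with earlier results of these data known. All 26 genes had a CHD8 promoter peak, against 55.9% of all coding genes. A TRRAP promoter peak was found at 16 of them (61.5%), close to the 60.7% of all coding genes with CHD8. The ATM partners MRE11, RAD50 and NBN, the DNA-PK partners XRCC5 and XRCC6, and the checkpoint kinase genes CHEK1 and CHEK2 all carried both. At CHEK2 the TRRAP summit lay 630 bp upstream of the start site. Its peak fell outside a promoter window of 500 bp, with which 15 partners had TRRAP. Of the ATR partners, ATRIP and TOPBP1 carried both and ETAA1 carried CHD8 alone. Of the 6 mTOR partners, RICTOR and MLST8 carried both, while RPTOR, MAPKAP1, DEPTOR and AKT1S1 had CHD8 without TRRAP at the promoter. TRRAP was listed in the bodies of RPTOR (2 peaks) and AKT1S1 (1 peak), whereas the MTOR span held 0 TRRAP peaks. It was also listed in the bodies of ATRIP and XRCC5 (1 peak each), which are not mTOR partners. Whether the body peaks of the partners lay at the starts of other genes was not examined. Of the SMG1 partners, SMG9 carried both and SMG8 and UPF1 carried CHD8 alone. Among the assembly factors, RPAP3, HSP90AA1 and HSP90AB1 carried both, and RUVBL1, RUVBL2 and PIH1D1 carried CHD8 alone. No comparison between these groups was tested.

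The strongest CHD8 promoter peak of the partner list was at AKT1S1, an inhibitory subunit of the mTOR complex that contains RPTOR (chromosome 19, 49876090 to 49878256, fold 44.7), which ranked above 99% of the coding genes with CHD8. RPTOR, the substrate-binding subunit of that complex, followed with a fold of 40.2 (chromosome 17, 80544655 to 80545384, summit 28 bp from the start site, above 98.4%). Neither had a TRRAP promoter peak. The strongest TRRAP promoter peak of the list was at RPAP3, a subunit of R2TP (chromosome 12, 47705566 to 47705825, fold 13.9), with its summit 386 bp downstream of the start site. It ranked above 84.5% of the coding genes with TRRAP, below ATM. A second TRRAP promoter peak of RPAP3, lower in rank, lay at 47705937 to 47706135 and covered the start site. The weakest CHD8 peak was at RAD50 (fold 8.43) and the weakest TRRAP peak at XRCC6 (fold 5.78, above 3.61%), where CHD8 was strong (fold 21.2, above 86.9%).

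**Figure D5:**
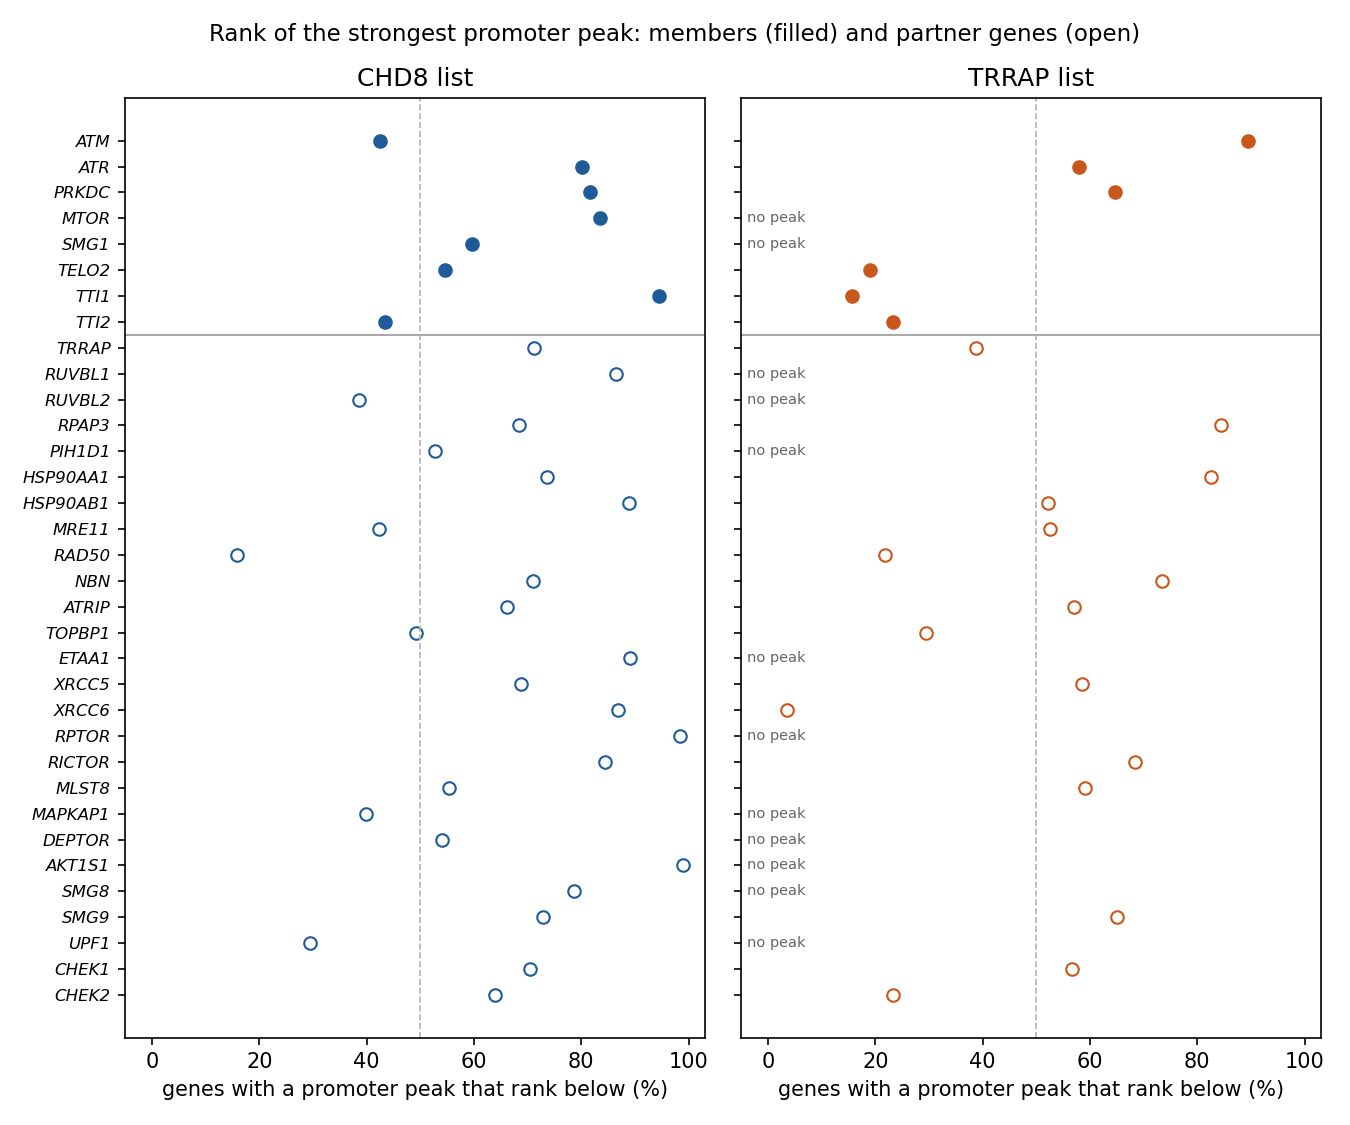
Percentage of coding genes with a promoter peak that rank below each gene's strongest promoter peak, for the CHD8 list (left) and the TRRAP list (right). Filled points are the 8 genes and open points the 26 partners, with "no peak" where the list has no promoter peak. In the TRRAP list ATM lies at 89.4%, and the 10 partners without a TRRAP promoter peak include RPTOR and AKT1S1, which lie at 98.4% and 99% in the CHD8 list.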

How the data were processed

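ChIP-seq peak lists for CHD8 and TRRAP (1 library each) were analysed. The submitters' processing notes name HISAT2, MACS2 2.1.1.20160309 and GRCh38, without roles or parameters. Filters and the control used are not given in the sources used here. Per peak, the deposited lists give the fold (a linear ratio over background), −log10 p and −log10 q values, a summit and a score, which in the deposited files equals 10 times the −log10 q, rounded down. The file names carry FDR thresholds of 0.0001 for CHD8 and 0.001 for TRRAP.

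Peaks were compared with GENCODE 44 at an overlap of at least 1 bp. No main-chromosome peak ran past its GRCh38 sequence. Ranks followed −log10 q, then fold, width and position. Copy number was the median genome count of the 32-base words in 101 bp around a summit, alternate sequences left out. CpG ratios covered 500 bp either way from the start site. Assignment was tested on simulated data. Python 3.11.15, numpy 2.4.6, numba 0.67.0, edlib 1.3.9.post1 and matplotlib 3.10.9 were used.

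Without replicates, no p-value was calculated. The named genes were all 8 members, TRRAP, the partner list (exceptions and strongest peaks named), and neighbouring starts. The members and lists were chosen with earlier results of these data known, and the partner list came from general knowledge. Alternatives concerned the promoter window, start sites, span, overlap rule, peak threshold and repeated sequence.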

Additional observations from a re-analysis of the deposited data

How the results depend on the processing

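The 12 counts of genes and peaks were recomputed under 12 alternatives, which gave 86 values, and 81 of these stayed within 1.5 times the main count. The other 5 came from keeping only peaks above the median rank of their own list: 3 genes then had a TRRAP promoter peak, the same 3 had both proteins (ATM, ATR and PRKDC), and 4 TRRAP peaks remained in the spans, of which 4 overlapped CHD8. In the CHD8 list 4 peaks overlapped TRRAP. TELO2, TTI1 and TTI2 lost TRRAP under that setting, which follows from leaving out the weaker peaks. Several alternatives could hardly change a count. A q of at most 0.0001 kept 14712 of the 14735 TRRAP peaks. A shorter span could lose none, as 0 peaks of either list were counted upstream of the promoters. The band of 1.5 times also passes a fall from 16 to 11 partner genes with TRRAP. The 81 values are therefore no sign of robustness. SMG1 lost its CHD8 peak when summits had to be single-copy, leaving 7 genes. MTOR and SMG1 lacked a TRRAP promoter peak under every promoter alternative run, up to a window of 2500 bp. Their spans held 0 TRRAP peaks and no alternative loosened the peak threshold, so these settings could hardly have given another outcome. All 93 recomputed folds equalled the main values. The folds are deposited values, so they could differ only where another peak became the strongest, and a gene that lost its peaks gave no fold. This equality is therefore no sign of robustness. No paired analysis was possible because each antibody had 1 library. Since read depth is unknown, no detection limit can be given for a gene without a listed peak.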
